A study of Mus musculus with 9 samples.

Results

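The genes described here are 10 ligands and secreted factors by which a cell can restrain T cells or keep them alive: Cd274, Pdcd1lg2, Cd276, Pvr, Cd200, Cd47, Lgals9, Lgals1, Il7 and Tgfb1. They were chosen by symbol from a list of such ligands, with earlier results of these data known. All 10 are among the 24321 genes with an expression value. Their RNA was compared in meningeal lymphatic endothelial cells (MLECs), the cells that line the lymphatic vessels of the membranes around the brain, from mice with and without a tumor.

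The mice were male, 10 weeks old and, per the methods, C57BL/6, and there were 3 groups of 3 RNA-seq libraries. Control mice received PBS. GL261 mice received cells of GL261, a mouse glioma line, and B16 mice received cells of B16, a mouse melanoma line. Per the labels, GL261 mice were killed after about 3 weeks and B16 mice after about 2 weeks, and at these times tumor type and time after injection cannot be told apart. The meninges of 6 mice were pooled for each library, and 10 cells sorted on CD31, CD45 and LYVE-1 went into each. The sources differ on the route of injection (cisterna magna in the labels, below the dura in the methods), on the time after injection (separate for each tumor in the labels, a range for all groups in the methods, a single time in the results text) and on the sorting marker (LYVE-1 in labels and methods, PDPN in the results text). GL261 and B16 libraries are together called tumor-associated, as in the study.

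Lymphatic endothelial cells meet T cells that leave a tissue, and they present surface ligands to them. PD-L1 (from Cd274), PD-L2 (from Pdcd1lg2), CD200, CD155 (from Pvr) and galectin-9 (from Lgals9) each bind receptors that can dampen T cells or myeloid cells, whereas interleukin-7 (from Il7) is a survival factor that lymphatic endothelium is known to supply to T cells. TGF-β1 (from Tgfb1) restrains T-cell activation and is secreted in a latent form that other proteins store and activate.

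Values are FPKM, fragments scaled to transcript length and library size, so that levels of different genes are compared per length. Each difference is one of means of log2(FPKM + 1), a scale that makes changes of weakly expressed genes look smaller than they are. limma was run over the 9955 genes that reached 1 FPKM in 3 or more libraries. The threshold is an adjusted p of 0.05 (Benjamini-Hochberg over all genes tested). Of the 10 ligands, 9 were tested. Gene positions are those of GENCODE M1 on NCBIM37, the assembly that mm9 names.

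Libraries differed in depth along with the groups. The depth of each library relative to GL261 replicate 2, the deepest, was estimated from the steps between low FPKM values. It was 20.3%, 23.7% and 14.9% in control replicates 1, 2 and 3, 94.6% and 55.1% in GL261 replicates 1 and 3, and 25.2%, 46.7% and 56.6% in B16 replicates 1, 2 and 3. Each control library was thus shallower than each tumor-associated library, with control replicate 2 and B16 replicate 1 the closest pair, and depth and tumor status cannot be told apart by design. The number of genes above 0 ran from 7303 to 8688 in control, from 9456 to 10852 in GL261 and from 8736 to 9950 in B16 libraries. Tbp, a transcription factor that every cell uses, was listed at 0 in control replicates 1 and 3, at 1.31 FPKM in control replicate 2 and at 9.06 to 16.7 FPKM in the tumor-associated libraries. The other 5 such genes examined, Polr2a, Hprt, Gapdh, Actb and Ppia, were above 0 in each library. Polr2a had 27.5, 11.5 and 30.1 FPKM in control against 3.79 to 16.8 FPKM in the tumor-associated libraries. Gapdh (586 to 918 against 1267 to 2306 FPKM) and Actb (3036 to 4207 against 5316 to 7551 FPKM) were higher in each tumor-associated library than in each control library, whereas Hprt and Ppia overlapped. A ligand at 0 is called listed at 0 and not absent.

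Markers of the sorted cells moved with the groups as well. All 8 lymphatic endothelial markers were above 0 in each library, and Lyve1, the most abundant by the mean over the 9 libraries (as for each list described here), ranged from 974 to 1705 FPKM in control and from 628 to 1895 FPKM in tumor-associated libraries. Summed over the 8 genes, the control libraries had 3254, 3128 and 2716 FPKM, the GL261 libraries 1419, 1116 and 2601 FPKM, and the B16 libraries 2867, 1329 and 1742 FPKM. Of the 7 lymphatic markers tested, 3 were past the threshold in tumor-associated against control MLECs and all 3 were lower, namely Flt4, Mmrn1 and Reln. Prox1 had 20.9 to 42.2 FPKM in control against 1.87 to 16.5 FPKM in the tumor-associated libraries. Its difference of -2.79 missed the threshold (limma's adjusted p = 0.0509). Pdpn overlapped, with all 6 tumor-associated libraries below the control mean. Ccl21a, not tested, was lower in each tumor-associated library than in each control library. Pecam1, on the same list, was higher in each tumor-associated library (309 to 468 FPKM) than in each control library (149.5 to 292.7 FPKM). Its difference of 0.67 was not past the threshold (limma's adjusted p = 0.222).

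Summed over its 10 markers, blood endothelial RNA was higher in each tumor-associated library than in each control library. The sum was 2370, 3165 and 2717 FPKM in control, 9516, 9607 and 6670 FPKM in GL261, and 6081, 8590 and 6820 FPKM in B16 libraries, with Plvap the most abundant. Of these 10 markers, 7 were past the threshold and higher (Flt1, Cd34, Emcn, Esam, Plvap, Vwf and Ly6c1), and 0 were lower. Kdr and Cldn5 had differences below 0 (-0.34 and -0.63), and in GL261 Cldn5 was past the threshold and lower (-1.01, standard error 0.21, limma's adjusted p = 0.0215). Ly6c1 was listed at 0 in each control library and had 1886 to 4375 FPKM in GL261 and 393 to 873 FPKM in B16 libraries. These marker values go with every difference between control and tumor-associated libraries given here. Their part in the differences was not tested.

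Transcripts of other cells were low or uneven. Of 11 T- and B-lymphocyte markers, 7 were listed at 0 in all 9 libraries, among them Ptprc (CD45), Cd3d, Cd3e, Cd3g and Cd8a, and the sum of the list ran from 0 FPKM (control replicate 1 and GL261 replicate 2) to 42.9 FPKM (control replicate 2), with Lck the most abundant. The 13 myeloid markers summed to 791 FPKM in GL261 replicate 2 and to 44.8 to 377 FPKM in the other libraries, with Ptprc and Adgre1 listed at 0 throughout. In GL261 replicate 2 most of the sum came from Lyz2 (324 FPKM), C1qa (186 FPKM) and C1qb (163 FPKM), whereas Cd14, the gene of the list with the highest mean over the 9 libraries, had 18.6 FPKM there. Mural markers summed to 570 FPKM in control replicate 1, where Acta2 alone had 505 FPKM, and to 15.4 to 202.5 FPKM elsewhere. Meningeal fibroblast markers, led by Dcn, summed to 22.1, 49.0 and 16.2 FPKM in control replicates 1, 2 and 3, but to at most 3.85 FPKM in each tumor-associated library, with Lum listed at 0 throughout. Dcn was past the threshold and lower in tumor-associated MLECs (-4.60, standard error 0.62, limma's adjusted p = 0.00110). It was also lower in GL261 and B16 alone (limma's adjusted p = 0.00683 and 0.00803). The 6 melanoma markers reached a sum of at most 4.07 FPKM and the 6 glial and glioma markers at most 9.08 FPKM in any library, and Mlana, Tyr, Tyrp1, Gfap and Sox2 were listed at 0 in all 9.

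**Figure D1:**
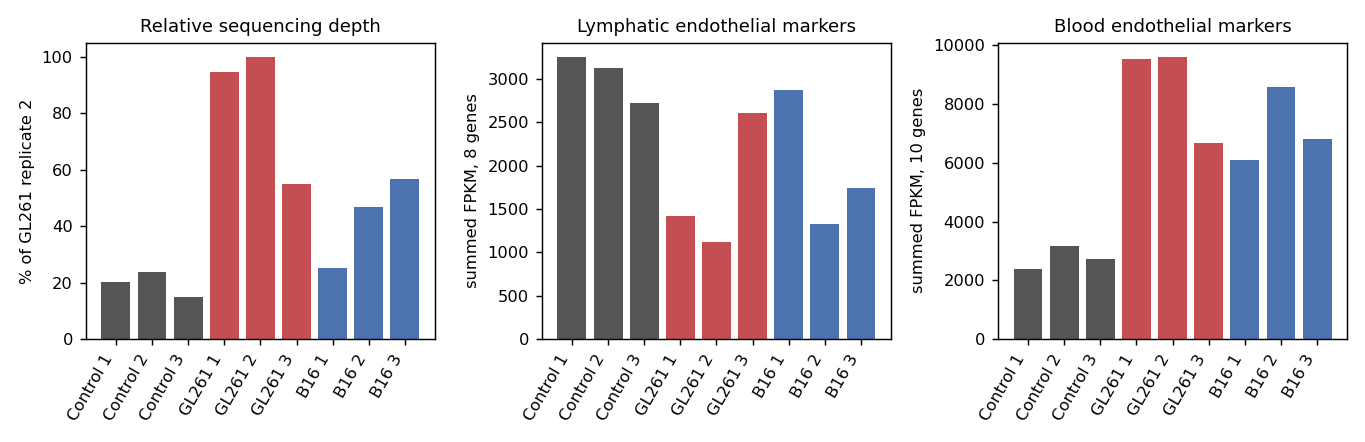
Bars show, for each of the 9 libraries, the estimated depth as a percentage of GL261 replicate 2 (left), and the summed FPKM of 8 lymphatic (middle) and 10 blood endothelial markers (right). The control libraries are the shallowest, at 14.9% to 23.7%, and have the lowest blood endothelial sums, at 2370 to 3165 FPKM.

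Among the ligands, Cd200 was past the threshold in tumor-associated against control MLECs, and it was higher. That is 1 of the 9 ligands tested, where 3.93% of all genes tested passed (391 genes, 289 higher and 102 lower). The median difference of the 9 ligands was -0.45 and that of all genes tested 0.20. For both tumors joined, 3.93% and 0.20 are the share and median over all genes for every list given here. Ligands and lists were chosen with earlier results of these data known, so their counts are descriptions. With quantile normalization the median of all genes moved to -0.04 and the calls to 230 higher and 157 lower. Groups did not overlap for 3 ligands: Cd200 and Lgals9 were higher in each tumor-associated library than in each control library, as were 6.08% of the genes tested, and Il7 was lower in each, as were 4.44%.

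CD200 is a surface glycoprotein of endothelial, neuronal and lymphoid cells, and its receptor on myeloid and T cells is inhibitory. Its gene lies at chr16:45382248-45409166 on the reverse strand. Cd200 had 114, 51.0 and 74.2 FPKM in control replicates 1, 2 and 3, 343, 270 and 276 FPKM in GL261, and 227, 356 and 324 FPKM in B16 libraries. All 6 tumor-associated libraries were above all 3 control libraries, and GL261 and B16 overlapped. The mean was 79.6 ± 31.6 FPKM (SD, n = 3) in control and 299 ± 49.5 FPKM (SD, n = 6) in tumor-associated MLECs, 3.76 times as high. Because the 10 cells of a library were measured together, more cells of a type and more RNA per cell cannot be told apart.

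The log2 difference of Cd200 was 1.96 (standard error 0.31, 95% interval 1.29 to 2.62, adjusted p = 0.00314 from limma), with all 6 tumor-associated libraries above the control mean. It was 1.95 (standard error 0.36, limma's adjusted p = 0.0133) in GL261 and 1.96 (standard error 0.36, limma's adjusted p = 0.0170) in B16 against control, comparisons that share their control libraries. In both comparisons Cd200 was 1 of 9 ligands past the threshold, against 3.49% of all genes for GL261 and 2.11% for B16. The call ended with a term for sequencing: the difference was 2.18 with the number of genes detected as a covariate (limma's adjusted p = 0.129) and 1.79 with relative depth, an alternative chosen after seeing the data (limma's adjusted p = 0.244). With genes detected the difference was not smaller than without a covariate. With relative depth it was, and since depth moved with tumor status, a smaller difference and a loss of power cannot be told apart there. In the pair closest in depth, Cd200 had 51.0 FPKM in control replicate 2 and 227 FPKM in B16 replicate 1. These were the lowest values of control and of the tumor-associated libraries, and control replicate 1, at 20.3% of the depth of GL261 replicate 2, had 114 FPKM. A pair of 1 library each cannot tell depth and tumor status apart.

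The calls for single tumors rested on fewer libraries. For Cd200 in GL261 against control, the adjusted p from limma was 0.0742 without GL261 replicate 1 and 0.0581 without GL261 replicate 2. In B16 against control it was 0.0806 without B16 replicate 2 and 0.0838 without B16 replicate 3. Without a trend in eBayes, Cd200 was past the threshold for both tumors joined, but not for GL261 (limma's adjusted p = 0.0904) or B16 (limma's adjusted p = 0.101) alone.

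Over the 9 libraries, the genes most like Cd200 were Uaca (Pearson r 0.96), Anxa3 (r 0.96) and Prps1 (r 0.96) among the 9954 other genes tested. Uaca had 0 to 1.01 FPKM in control against 8.13 to 23.5 FPKM in the tumor-associated libraries, Anxa3 had 24.4 to 83.4 and 204.4 to 486.5 FPKM, and Prps1 had 0 to 0.18 and 9.27 to 27.8 FPKM. The 9 points share the group difference, depth and library, so that r is a description.

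**Figure D2:**
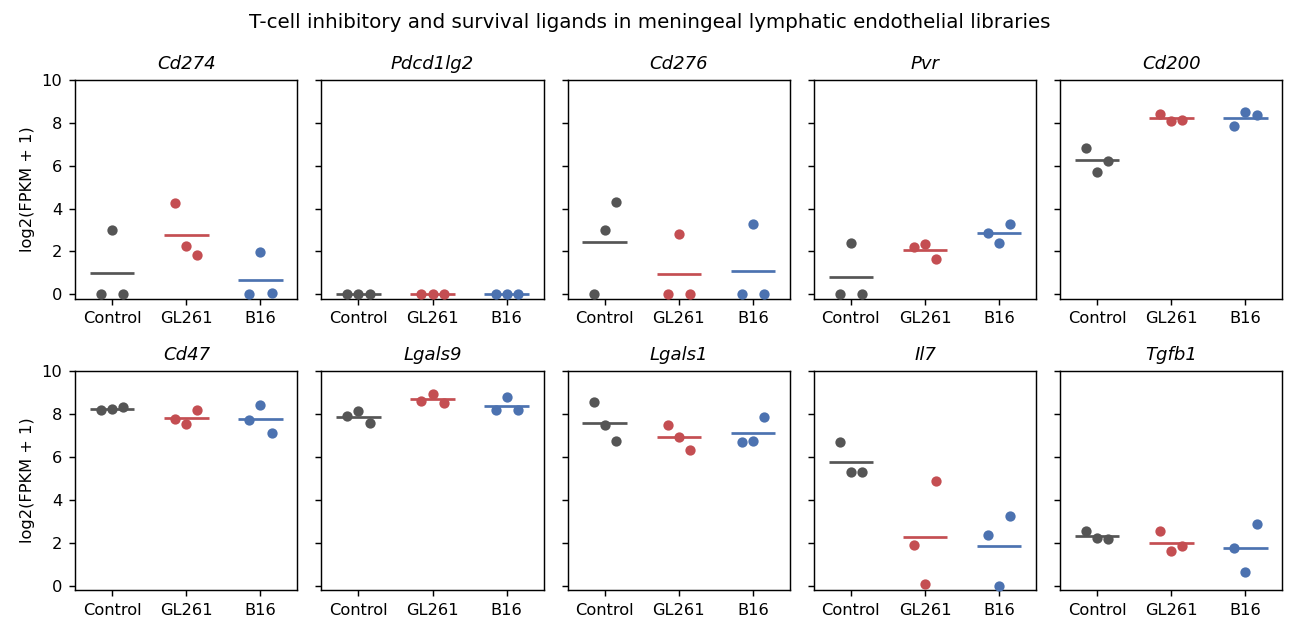
Each point is the log2(FPKM + 1) of 1 library and each line the mean of 3 libraries, for 10 ligands in control, GL261 and B16 MLECs. Cd200 and Lgals9 lie higher and Il7 lies lower in all 6 tumor-associated libraries than in the control libraries, and Pdcd1lg2 is listed at 0 in all 9.

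Interleukin-7 binds a receptor of naive and memory T cells and of lymphoid progenitors, and supports their survival. Il7 lies at chr3:7572036-7613722 on the reverse strand, where the annotation has an overlapping lincRNA on the other strand, Gm16685. The sources do not say that strand was used, so reads of overlapping entries cannot be told apart. Il7 had 102, 38.2 and 38.6 FPKM in control replicates 1, 2 and 3, 2.76, 0.055 and 28.2 FPKM in GL261, and 4.14, 0 and 8.38 FPKM in B16 libraries. All 6 tumor-associated libraries were below all 3 control libraries, with GL261 replicate 3 the nearest to them. The mean was 59.6 ± 36.6 FPKM (SD, n = 3) in control and 7.25 ± 10.7 FPKM (SD, n = 6) in tumor-associated MLECs.

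Il7 differed by -3.69 on the log2 scale (standard error 1.01, 95% interval -5.88 to -1.50), the largest in size of the 9 ligands tested, but it missed the threshold (limma's adjusted p = 0.0637, all 6 tumor-associated libraries below the control mean). It was -3.48 in GL261 (limma's adjusted p = 0.163) and -3.90 in B16 (limma's adjusted p = 0.144). Leaving out GL261 replicate 3 put Il7 past the threshold, at -4.25 (limma's adjusted p = 0.0244), while its adjusted p was 0.192 without control replicate 1, the control library with the highest value. With the replicate number as a block Il7 was past the threshold as well (limma's adjusted p = 0.0400), although the numbers do not pair the libraries. In the pair closest in depth, Il7 had 38.2 FPKM in control replicate 2, the lowest control value, and 4.14 FPKM in B16 replicate 1. As for Cd200, 1 pair cannot tell depth and tumor status apart. Il7 is also in a list of lowered genes that the study chose on these libraries, so that its direction is not independent of that list.

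The genes most like Il7 were Laptm4a (Pearson r 0.95), Dzip3 (r 0.94) and Gpm6a (r 0.94). Gpm6a, which encodes a membrane glycoprotein, had 426, 313 and 197 FPKM in control against 13.7 to 113 FPKM in the tumor-associated libraries, with GL261 replicate 3 the highest of these, as for Il7.

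Galectin-9 is a secreted lectin that binds TIM-3 among other glycoproteins of T cells. Lgals9, at chr11:78776476-78798448 on the reverse strand, had 235, 280 and 187 FPKM in control replicates 1, 2 and 3, 393, 478 and 362 FPKM in GL261, and 289, 442 and 288 FPKM in B16 libraries. The groups did not overlap, but the gap was narrow, from 280 FPKM in the highest control library to 288 FPKM in the lowest B16 library. The mean was 234 ± 46.6 FPKM (SD, n = 3) in control and 376 ± 78.2 FPKM (SD, n = 6) with a tumor. The log2 difference of 0.67 (standard error 0.26, 95% interval 0.10 to 1.24) was not past the threshold (limma's adjusted p = 0.188, all 6 tumor-associated libraries above the control mean), and with relative depth as a covariate, the alternative chosen after seeing the data, it was 0.18. In the pair closest in depth the values were 280 FPKM, the highest of control, and 289 FPKM, and 1 pair cannot tell depth and tumor status apart. Among the genes that every cell uses, Tbp, Actb and Gapdh were separated between the groups in the same direction, as was the ligand Cd200. Hprt, Ppia and Polr2a overlapped, with the highest values of Polr2a in control replicates 1 and 3. The part of any such shift in the differences of the ligands was not tested.

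Galectin-1, which binds glycans of activated T cells, is encoded by Lgals1 at chr15:78757155-78760895 on the forward strand. Lgals1 had 373, 176 and 106 FPKM in control, 178, 119 and 78.2 FPKM in GL261, and 101, 104 and 234 FPKM in B16 libraries. The groups overlapped, and control replicate 1 was the highest library. The log2 difference was -0.59 (standard error 0.44, 95% interval -1.55 to 0.36, limma's adjusted p = 0.489), with 5 of 6 tumor-associated libraries below the control mean. Of the 7 other galectin genes and galectin-binding genes on the list, 4 were tested and 0 were past the threshold in each of the 4 comparisons. The most abundant were Lgals8, with 19.7 to 58.6 FPKM in control against 5.63 to 32.1 FPKM in the tumor-associated libraries, and Lgals3bp, with 14.4 to 42.9 and 0 to 61.3 FPKM.

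CD47 binds SIRPα on myeloid cells and restrains phagocytosis, and it also binds thrombospondin. Cd47 lies at chr16:49855731-49915123 on the forward strand, and the annotation has a pseudogene entry of the same name at its end. Cd47 had 290, 298 and 321 FPKM in control, 212, 185 and 291 FPKM in GL261, and 210, 337 and 139 FPKM in B16 libraries. The control libraries lay close together, at 303 ± 16.3 FPKM (SD, n = 3), and the tumor-associated libraries ranged below and above them, at 229 ± 72.3 FPKM (SD, n = 6). The log2 difference was -0.46 (standard error 0.30, 95% interval -1.11 to 0.19, limma's adjusted p = 0.429), with 5 of 6 tumor-associated libraries below the control mean.

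RNAs for the ligands of the PD-1 receptor were low or listed at 0. Their genes lie next to each other on chromosome 19, Cd274 at chr19:29441945-29462585 and Pdcd1lg2 at chr19:29485409-29545647, both on the forward strand. Pdcd1lg2 was listed at 0 in all 9 libraries and was not tested. Cd274 was listed at 0 in control replicates 1 and 3 and in B16 replicate 1, had 7.02 FPKM in control replicate 2, 18.0, 3.79 and 2.55 FPKM in GL261 replicates 1, 2 and 3, and 2.95 and 0.064 FPKM in B16 replicates 2 and 3. All 3 GL261 libraries were above 0, but control replicate 2 was above 2 of them. The log2 difference was 0.73 (standard error 1.02, 95% interval -1.47 to 2.93, limma's adjusted p = 0.753), with 4 of 6 tumor-associated libraries above the control mean, and its sign turned with relative depth (-2.05) or genes detected (-1.87) as a covariate.

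CD276 (B7-H3) is a B7-family protein with inhibitory effects on T cells, and CD155 binds the inhibitory receptor TIGIT and the activating receptor CD226. Cd276, at chr9:58372107-58402939 on the reverse strand and overlapped on the other strand by Gm10657, was listed at 0 in 5 of 9 libraries. Its values above 0 were 6.88 and 18.7 FPKM in control replicates 2 and 3, 6.09 FPKM in GL261 replicate 2 and 8.86 FPKM in B16 replicate 2. Groups overlapped, and the log2 difference was -1.41 (standard error 1.09, 95% interval -3.76 to 0.95, limma's adjusted p = 0.507), with 5 of 6 tumor-associated libraries below the control mean. Pvr, at chr7:20488927-20506509 on the reverse strand, where the annotation has 2 overlapping entries on the other strand, was listed at 0 in control replicates 1 and 3 and had 4.32 FPKM in control replicate 2, 3.65, 4.14 and 2.11 FPKM in GL261, and 6.25, 4.28 and 8.70 FPKM in B16 libraries. All 6 tumor-associated libraries were above 0 and above the control mean of 1.44 FPKM, but control replicate 2 lay within their range. The log2 difference of Pvr was 1.65 (standard error 0.76, 95% interval 0.0037 to 3.31) and missed the threshold (limma's adjusted p = 0.262).

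RNA for TGF-β1 was low in all groups. Tgfb1, at chr7:26472021-26490096 on the forward strand, had 4.92, 3.66 and 3.55 FPKM in control, 4.83, 2.01 and 2.56 FPKM in GL261, and 2.36, 0.57 and 6.24 FPKM in B16 libraries. The control libraries lay within the range of the B16 libraries. The log2 difference was -0.45 (standard error 0.71, 95% interval -1.98 to 1.07, limma's adjusted p = 0.782), with 4 of 6 tumor-associated libraries below the control mean.

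By mean level per length, the order in control MLECs was Cd47 (303 FPKM), Lgals9 (234), Lgals1 (219), Cd200 (79.6), Il7 (59.6), Cd276 (8.53), Tgfb1 (4.04), Cd274 (2.34), Pvr (1.44) and Pdcd1lg2 (0). Neighbours in this order whose library ranges did not overlap were Cd47 and Lgals9, and Il7 and Cd276. In tumor-associated MLECs the order was Lgals9 (376 FPKM), Cd200 (299), Cd47 (229), Lgals1 (136), Il7 (7.25), Pvr (4.85), Cd274 (4.56), Tgfb1 (3.09), Cd276 (2.49) and Pdcd1lg2 (0), and only Lgals1 and Il7 were neighbours with separate ranges. Lgals9, Lgals1, Cd47 and Cd200 were thus the abundant ligands of both groups, each at the 93.3 percentile of all 24321 genes or above in every library.

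GL261 and B16 MLECs were compared directly, and 0 of the 9 ligands were past limma's threshold, against 0.01% of all genes (1 gene, B2m, named after its value was seen). At an unadjusted p under 0.05, limma counted 0 ligands and 548 genes. The widest differences were those of Cd274, 2.09 higher in GL261 (95% interval -0.24 to 4.41, limma's adjusted p = 0.955), and Pvr, lower in GL261 by a log2 difference of -0.77 (95% interval -2.70 to 1.15, limma's adjusted p = 1). In Pvr each GL261 library was below each B16 library, but the gap was narrow, from 4.14 to 4.28 FPKM. The share of all genes that separate between groups of 3 libraries was not counted, for Pvr or any other gene. For Cd200 the difference was -0.0092 with a 95% interval of -0.80 to 0.78, so that differences within that interval cannot be told apart from none.

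TGF-β1 acts together with further ligands, storage proteins and receptors. Of 14 genes for other TGF-β ligands, their storage and their activation, 11 were tested, 1 was higher and 2 were lower in tumor-associated MLECs, with a median difference of -0.57 against 0.20 over all genes tested. Tgfb3, another TGF-β ligand, had 41.3, 30.0 and 23.5 FPKM in control, 0.91, 1.13 and 0.071 FPKM in GL261, and 7.27, 1.17 and 0.41 FPKM in B16 libraries, and it fell by 3.86 on the log2 scale (standard error 0.77, limma's adjusted p = 0.0139, and 0.0524 without control replicate 1). Ltbp4, which stores latent TGF-β in the matrix, had 162 to 197 FPKM in control against 14.9 to 69.2 FPKM in the tumor-associated libraries and fell by 2.31 (standard error 0.45, limma's adjusted p = 0.0115). Both were lower in 6 of 6 tumor-associated libraries than in any control library. In B16 alone neither was past the threshold (limma's adjusted p = 0.0742 for Tgfb3 and 0.0678 for Ltbp4).

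Lrrc32, which encodes GARP, the protein that holds latent TGF-β on the cell surface, had 0.34, 11.02 and 6.21 FPKM in control against 21.2 to 113 FPKM in the tumor-associated libraries. It rose by 3.12 (standard error 0.77, limma's adjusted p = 0.0409), but was not past the threshold without control replicate 1 (limma's adjusted p = 0.129), nor without any of control replicate 3 or the 6 tumor-associated libraries (0.0561 to 0.0862 in limma). In GL261 and B16 alone Lrrc32 was not past the threshold (limma's adjusted p = 0.138 and 0.0752). The call of Lrrc32 also ended with a pseudocount of 0.1, the filter of FPKM above 0 in any library, rescaling or no trend (limma's adjusted p from 0.0633 to 0.0943). Mmp14, a membrane protease, had 43.5 to 127 FPKM in control against 28.1 to 231 FPKM in the tumor-associated libraries. Ltbp2, Itgb6 and Itgb8 were listed at 0 in all 9 libraries.

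Of the 9 receptors and SMADs through which the same cells respond to TGF-β, all were tested, 1 was higher and 1 was lower, and the median difference was 0.91. Tgfbr2, the type II receptor that binds TGF-β, had 176, 168 and 335 FPKM in control, 37.8, 23.5 and 29.6 FPKM in GL261, and 69.5, 45.4 and 30.3 FPKM in B16 libraries. It was lower in each tumor-associated library and fell by 2.51 (standard error 0.42, limma's adjusted p = 0.00523). Eng, the co-receptor endoglin of endothelial cells, had 176 to 355 FPKM in control against 388 to 792 FPKM in the tumor-associated libraries and rose by 1.37 (standard error 0.29, limma's adjusted p = 0.0197). Without control replicate 2 or control replicate 3 its adjusted p from limma was 0.0526 or 0.0805, and without a trend in eBayes it was 0.133. Rescaling to a sum of 1000000 (limma's adjusted p = 0.0657) and quantile normalization (0.0574 in limma) ended the call of Eng as well. In GL261 alone Eng was not past the threshold (limma's adjusted p = 0.0720).

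Other co-inhibitory ligands were mostly untested. Of 18, 8 were listed at 0 in all libraries, among them Vtcn1, Btnl2 and Fasl, 8 were tested, and 1 was higher. Ceacam1, a ligand of TIM-3 and of itself, was listed at 0 in control replicates 1 and 2, had 0.14 FPKM in control replicate 3, and had 38.0, 19.6 and 15.9 FPKM in GL261 and 19.2, 33.1 and 21.6 FPKM in B16 libraries. It rose by 4.55 (standard error 0.61, limma's adjusted p = 0.00104), higher in 6 of 6 tumor-associated libraries. The most abundant were H2-T23, which encodes the NKG2A ligand Qa-1, with 75.0 to 330.5 FPKM in control against 230 to 653 FPKM in the tumor-associated libraries, and Pvrl2 (nectin-2), a partner of Pvr in binding TIGIT and CD226, with 103 to 203 and 40.7 to 340 FPKM. Control and tumor-associated libraries overlapped for both genes. For H2-T23 each GL261 library, at 379 FPKM or more, was above each control and each B16 library, with a difference of 1.35 in GL261 that was not past the threshold (limma's adjusted p = 0.166). The median difference of the list was -0.68.

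Costimulatory ligands gave no call for both tumors joined. Of 14, 8 were listed at 0 throughout, among them Cd80 and Cd86, the ligands of CD28 and CTLA-4, and 4 were tested, with a median difference of 1.56. Icam1 and Icam2, adhesion ligands of the T-cell integrin LFA-1, were the most abundant. Icam2 had 54.8, 195 and 198 FPKM in control, 404, 255 and 244 FPKM in GL261, and 507, 437 and 746 FPKM in B16 libraries, and it was past the threshold in B16 (2.08, standard error 0.48, limma's adjusted p = 0.0473). The B16 call ended with a pseudocount of 0.1, the filter of FPKM above 0 in any library, rescaling, quantile normalization, no trend or either covariate (limma's adjusted p from 0.0576 to 0.478), and without any 1 library except control replicates 2 and 3 (0.0627 to 0.186 in limma). In GL261 Icam2 was not past the threshold (1.18, standard error 0.48, limma's adjusted p = 0.226). Icam1 had 0, 68.4 and 17.5 FPKM in control against 95.5 to 211 FPKM in the tumor-associated libraries (3.53, standard error 0.95, limma's adjusted p = 0.0577).

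Among 11 other cytokines and factors that keep T cells alive or guide them, 9 were tested, 0 were higher and 1 was lower, with a median difference of 0.75. Tslp, a cytokine whose receptor shares a chain with that of interleukin-7, had 17.2, 22.6 and 33.1 FPKM in control and 3.63, 4.01 and 5.50 FPKM in GL261 libraries and was listed at 0 in all 3 B16 libraries. The log2 difference was -3.41 (standard error 0.86, limma's adjusted p = 0.0449), with 6 of 6 tumor-associated libraries below every control library. Its adjusted p from limma exceeded the threshold without any 1 library except GL261 replicate 3, up to 0.119 without control replicate 3, and also with a pseudocount of 0.1 (0.129) or the filter of FPKM above 0 in any library (0.0919). In B16 alone Tslp was past the threshold (-4.61, standard error 0.75, limma's adjusted p = 0.00935), a call that ended with genes detected (0.156 in limma) or relative depth (0.236 in limma) as a covariate and under no other alternative run. The size of that difference depends on the pseudocount, since all 3 B16 values are 0. In GL261 Tslp was not past the threshold (-2.20, standard error 0.75, limma's adjusted p = 0.146).

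Il15, another survival cytokine of T and NK cells, was listed at 0 in control replicates 1 and 3, had 9.11 FPKM in control replicate 2, 52.0, 43.9 and 19.3 FPKM in GL261, and 14.6, 10.2 and 10.8 FPKM in B16 libraries. It was past the threshold in GL261 (4.07, standard error 0.96, limma's adjusted p = 0.0413) and not in B16 (2.56, limma's adjusted p = 0.233). The GL261 call of Il15 ended without any 1 library except control replicate 2 (limma's adjusted p from 0.0571 to 0.174), and with a pseudocount of 0.1, the filter of FPKM above 0 in any library, rescaling, no trend or either covariate (0.0507 to 0.872 in limma). Flt3l, a growth factor of dendritic cells, had 40.8, 15.96 and 16.8 FPKM in control, 2.92, 1.04 and 0 FPKM in GL261, and 7.11, 3.50 and 6.64 FPKM in B16 libraries, and it fell in GL261 (-3.54, standard error 0.84, limma's adjusted p = 0.0415). That call ended without any 1 of the 9 libraries (limma's adjusted p from 0.0534 to 0.133), and with a pseudocount of 0.1, either other filter or either covariate (0.0504 to 0.656 in limma). Il15ra, which presents interleukin-15, had 2.18 to 51.3 FPKM in control against 0 to 31.7 FPKM in the tumor-associated libraries. None of Il15, Flt3l, Tslp, Icam2 or Socs1 was past limma's threshold between GL261 and B16. Tslp and Flt3l are also in the lists that the study chose on these libraries.

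Of 10 enzymes that restrain T cells through nucleotides, amino acids, nitric oxide or prostaglandins, 6 were tested, 3 were higher and 0 were lower, with a median difference of 2.88. Over all genes tested, 3.93% passed and the median was 0.20. Since the list was chosen with earlier results of these data known, the 2 shares are a description and not a test of the list. Entpd1 (CD39), which degrades extracellular ATP, was listed at 0 in control replicates 1 and 3, had 11.7 FPKM in control replicate 2, and had 268, 251 and 205 FPKM in GL261 and 201, 224 and 351 FPKM in B16 libraries. It rose by 6.72 (standard error 0.69, limma's adjusted p = 0.000170). Ptgs1, a cyclooxygenase, had 0 to 4.55 FPKM in control against 19.6 to 69.6 FPKM in the tumor-associated libraries, and rose by 4.18 (standard error 0.70, limma's adjusted p = 0.00499). Nos3, the nitric oxide synthase of endothelium, had 0 to 2.80 and 8.10 to 56.0 FPKM and rose by 3.62 (standard error 0.76, limma's adjusted p = 0.0186). Without control replicate 1 the difference was 3.10 and not past the threshold (limma's adjusted p = 0.0675). Without B16 replicate 3 it was 3.39 and also not past it (0.0525 in limma). In GL261 alone Nos3 was not past the threshold (limma's adjusted p = 0.0820). All 3 were higher in 6 of 6 tumor-associated libraries. Entpd1, Ptgs1, Nos3 and Ceacam1 are in the study's lists of raised genes. Entpd1, Nos3, Eng and Icam2, like Cd200, are also known from blood endothelium. Its summed marker level was higher in the same libraries, although its markers Kdr and Cldn5 had differences below 0. The part of blood endothelial RNA in these differences was not tested.

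All 10 companion genes past the threshold for both tumors joined were without a call once relative depth, chosen after seeing the data, or the number of genes detected was a covariate, with the same direction in each. The differences with relative depth were 4.31 for Ceacam1, 5.86 for Entpd1, 3.10 for Ptgs1, 4.54 for Nos3, 4.69 for Lrrc32, 1.76 for Eng, -2.66 for Tgfb3, -1.15 for Ltbp4, -1.44 for Tgfbr2 and -5.10 for Tslp. With either covariate the differences of Lrrc32, Eng and Tslp were larger in size than without one. That of Nos3 was larger with relative depth and smaller with genes detected (3.46). For the other 6 the differences were smaller with either, and a smaller difference and a loss of power cannot be told apart. Without both control replicate 1 and GL261 replicate 2, also chosen after seeing the data, the calls of Tgfb3, Nos3, Ptgs1, Tslp and Lrrc32 for both tumors joined ended (limma's adjusted p from 0.0506 to 0.144), as did those of Il15 and Flt3l in GL261 and Icam2 in B16 (0.107 to 0.263 in limma).

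**Figure D3:**
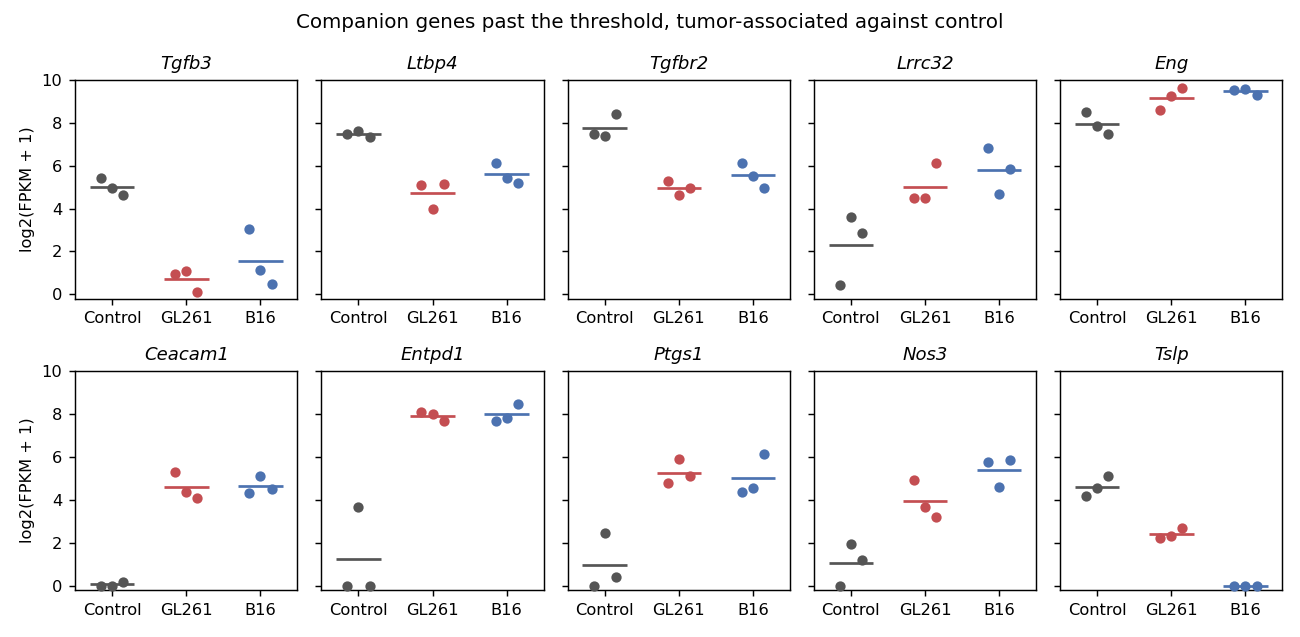
Each point is the log2(FPKM + 1) of 1 library and each line the mean of 3 libraries, for the 10 companion genes past limma's threshold in tumor-associated against control MLECs. Tgfb3, Ltbp4, Tgfbr2 and Tslp lie lower, and Lrrc32, Eng, Ceacam1, Entpd1, Ptgs1 and Nos3 lie higher, in all 6 tumor-associated libraries than in the control libraries.

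Interferon-γ, a cytokine of activated T cells, induces PD-L1 on many cells. Of 13 genes of that route, 11 were tested and 0 were past limma's threshold for both tumors joined, with a median difference of 0.83. In GL261, Socs1, a feedback inhibitor of the JAK kinases, was past the threshold (5.07, standard error 1.11, limma's adjusted p = 0.0306). Socs1 was listed at 0 in control replicates 1, 2 and 3 and at 56.8, 65.6 and 8.84 FPKM in GL261 and at 0.50, 14.3 and 15.8 FPKM in B16 libraries, and with relative depth as a covariate its difference in GL261 was -0.45. The GL261 call of Socs1 also ended with the filter of FPKM above 0 in any library (limma's adjusted p = 0.0762), with genes detected as a covariate (0.826 in limma), without both control replicate 1 and GL261 replicate 2 (0.212 in limma), and without any 1 of control replicates 1, 2 and 3 and GL261 replicates 1 and 2 (0.0560 to 0.140 in limma). The most abundant were Ifngr1, a receptor chain, with 56.8 to 104.5 FPKM in control against 49.5 to 98.8 FPKM in the tumor-associated libraries, and Irf1, with 0.33, 10.7 and 40.4 FPKM in control against 33.4 to 135 FPKM in the tumor-associated libraries.

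Receptors that T cells and myeloid cells use for such ligands were mostly listed at 0 in the sorted cells. The receptors of TGF-β1 described above are not on this list. Of 14 receptors of T cells and myeloid cells, 8 were listed at 0 in all 9 libraries, among them Pdcd1, Havcr2, Cd200r1, Cd226 and Il7r, and 3 were tested, of which 0 were past limma's threshold in any of the 4 comparisons. Il2rg, the common cytokine receptor chain, was the most abundant, with 77.0 to 174 FPKM in control against 56.3 to 168 FPKM in the tumor-associated libraries. Sirpa, the receptor of CD47, had 0 to 56.5 and 0.095 to 25.6 FPKM.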

How the data were processed

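The authors trimmed the reads, aligned them to mm9 with TopHat2 2.0.12 and deposited Cufflinks 2.2.1 values as FPKM per gene symbol and library, 1 column per library. The gene annotation is not given in the sources used here. Replicates are pools of different mice. FPKM as deposited were turned into log2(FPKM + 1), and genes that reached 1 FPKM in 3 or more libraries were tested with limma 3.58.1 (lmFit, eBayes with a trend) in R 4.3.3. GL261 and B16 were joined against control, and the single tumors came from a fit of all 3 groups. limma was tested on simulated data. Alternatives were a pseudocount of 0.1, other filters (FPKM above 0 in any library, mean FPKM of 10 or more), rescaling to a sum of 1000000, quantile normalization, no trend, a replicate block, genes detected or relative depth as a covariate, and libraries left out.

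Relative depth was the commonest ratio of values between 0.02 and 1 FPKM to those of GL261 replicate 2. The ratio was least certain for control replicate 1, where its peak stood 1.3 times above the next (1.5 to 2.48 times in the others). No read counts were used, so the counting error of single values was not estimated.

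Named genes are the 10 ligands and, of each companion list, the genes past the threshold in any comparison and the 2 with the highest mean FPKM. The 3 genes with the highest Pearson r were named for Cd200 and Il7, the ligands with the smallest p. Members and lists were chosen with earlier results of these data known. Tables and figures used Python 3.11.15, pandas 2.3.3 and matplotlib 3.10.9.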

Additional observations from a re-analysis of the deposited data

Results flagged for a closer look

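Among the 6 tumor-associated libraries, Cd274 stood apart in GL261 replicate 1, at 18.0 FPKM, where the gap to the next library made up 0.79 of the range. Il7 stood apart in GL261 replicate 3, at 28.2 FPKM, with a gap of 0.70 of the range. Both gaps, taken on FPKM, exceed Dixon's critical value for 6 libraries. On the log2(FPKM + 1) scale of the tests they were 0.47 for Cd274 and 0.34 for Il7, below that value. Groups of 3 were not examined in this way. For normally distributed values, chance marks about 1 in 20 such groups.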

How the results depend on the processing

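The difference of Cd200 against control was above 0 under every alternative run, and it lost the threshold for both tumors joined with genes detected or relative depth as a covariate. Of 668 recalculated ligand differences, 623 kept their direction and side of the threshold, 12 lost the threshold, 2 passed it (both Il7) and 31 changed sign. Of 511 for the companion genes called, 318 kept both, 192 lost the threshold and 1 changed sign. Relative depth as a covariate, and leaving out both control replicate 1 (mural markers) and GL261 replicate 2 (myeloid markers), were chosen after seeing the data. Against 391 genes for tumor-associated, 347 for GL261 and 210 for B16 against control, and 1 for GL261 against B16, a filter of FPKM above 0 in at least 1 library gave 254, 218 and 135, with more genes tested, genes detected gave 11, 6 and 16, relative depth gave 9, 2 and 5, and both libraries left out gave 171, 64, 103 and 2. Covariates of depth lowered the ligands called from 1 to 0 in each comparison with control, and eBayes without a trend did so in GL261 and B16 and gave 6 genes in GL261 against B16, where quantile normalization gave 2. With 1 library left out, the genes ranged from 238 to 449, from 115 to 368, from 72 to 279 and from 1 to 4, and the ligands from 1 to 2, from 0 to 1, from 0 to 1 and 0 in GL261 against B16. Counts moved by over 1.5 times without GL261 replicates 1 (257) and 2 (238) or B16 replicate 3 (247) for both tumors joined, without GL261 replicates 1 (115), 2 (126) and 3 (181) for GL261, and without GL261 replicates 1 (138) and 2 (131) or B16 replicates 2 (102) and 3 (72) for B16. They were highest in each comparison with control without control replicate 2.

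The numbers do not pair the libraries, since deviations of same-numbered libraries from their group means correlated at -0.033 to 0.044, and B16 replicate 1 correlated best with GL261 replicate 3 (0.050). With the replicate number as a block (replicate block), 2 ligands were past the threshold in tumor-associated against control, Cd200 and Il7 (limma's adjusted p = 0.0400), and 230 genes in GL261 against control. The block changed no other ligand's call. Of companion calls it ended those of Tslp (limma's adjusted p = 0.0755) and Lrrc32 (0.0608) for both tumors joined, Il15 (0.0608), Flt3l (0.0647) and Socs1 (0.0568) in GL261, and Icam2 (0.0790), Tgfbr2 (0.0744) and Eng (0.0811) in B16.

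Signs changed as follows, on the log2 scale. Genes detected gave -1.87 (tumor-associated) and -0.72 (GL261) for Cd274, 0.19 for Cd47 and -0.71 for Pvr in GL261, and 0.16 for Cd200 in GL261 against B16. Relative depth gave -2.05 and -1.16 for Cd274, 0.30 for Cd47, -0.45 for Pvr and -0.45 for Socs1 in GL261, and -0.033 for Lgals9 and -0.070 for Tgfb1 in GL261 against B16. For Cd274 in B16 against control, the difference was 0.69 without control replicate 2 and 0.034 without B16 replicate 1, in a range from -0.96 to 0.69. In GL261 against B16, rescaling gave -0.093 for Cd47 and quantile normalization -0.027 for Tgfb1, and leaving out 1 library gave ranges across 0, from -1.10 to 0.94 for Cd276, -0.32 to 0.79 for Tgfb1, -0.20 to 0.12 for Cd200 (0.053 with both libraries left out), -0.48 to 0.20 for Lgals1, -0.24 to 0.39 for Cd47 and -0.87 to 1.52 for Il7. Their causes were not tested. Cd274, Cd276, Pvr and Il7 were listed at 0 in 3, 5, 2 and 1 of 9 libraries, and at these depths a 0 does not show absence. The part of depth and of the 10 cells per library in the width of the intervals was not tested.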
